A study of Mus musculus with 15 samples.

Results

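The genes described here are 40 mouse genes whose products build and run mitosis, chosen by a list of gene symbols. No measured value enters that rule, but the list was drawn up with earlier results of these data known. All 40 were found among the 46078 genes counted in batch 1 and the 13063 named genes counted in batch 2, and all 40 passed the filter on low counts in every comparison. In batch 2 that filter removed none of the 13063 genes, so passing it says nothing there. A gene missing from the batch 2 counts is not read as a level of 0. They were read in 15 RNA sequencing libraries of cultured satellite cells, the stem cells that repair skeletal muscle, from mouse hindlimb. The cells were treated for 24 hours with 0.05 mM of the nucleoside adenosine or with DMSO in batch 1. In batch 2 they were treated for the same time with 0.1 mM adenosine, with 0.25 mM adenosine monophosphate (AMP) or with DMSO, and the batch 2 cells came from the C57BL/6J strain per the labels. All cells grew in F10 medium with horse serum, each group had 3 libraries, and no label gives a sex or an age. The labels leave unsaid whether libraries within a group are separate animals or separate dishes. The p-values therefore reflect the spread between libraries alone, and that spread may be technical.

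A cell enters mitosis when the kinase CDK1 is switched on by cyclin B, and Polo-like and Aurora kinases then help to build the spindle. Kinetochores tie the chromosomes to spindle microtubules, and a checkpoint holds the cell there until every chromosome is attached. The anaphase-promoting complex (APC/C) with its activator CDC20 then marks cyclin B and securin for destruction, separase cuts the cohesin rings that hold sister chromatids, and the cell divides by cytokinesis. Transcripts of this machinery are made mostly in late cell cycle, from promoters bound by NF-Y at CCAAT boxes and by DREAM or MuvB complexes at cell cycle homology regions. Satellite cells rest out of the cell cycle in uninjured muscle and divide as myoblasts once activated. In bulk libraries such as these, fewer dividing cells and less RNA per dividing cell cannot be told apart.

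After 24 hours, 39 of the 40 genes fell with 0.05 mM adenosine against DMSO in batch 1, with 0.1 mM adenosine against DMSO in batch 2 and with 0.25 mM AMP against DMSO. The other gene, Pttg1, which encodes securin, rose in all 3. Over the 40 genes the median log2 fold change was -3.97 with adenosine in batch 1, -3.61 with adenosine in batch 2 and -3.79 with AMP, against 0.03, 0.01 and 0.01 over all genes tested. A call is an adjusted p under 0.05 in edgeR's quasi-likelihood test. Of all genes tested, 19.5% were called lower and 19.6% higher in batch 1. The corresponding shares were 34.5% lower and 34.9% higher with adenosine in batch 2, and 31.8% lower and 33.7% higher with AMP. In CPM, counts scaled to the library total, the 3 treated libraries lay below the 3 DMSO libraries without overlap for 39 of the 40 genes in each comparison, a pattern shown by 17.9%, 24.3% and 22.3% of all genes tested in the same order of comparisons. Here and below, 3 values for a gene or role run in the order adenosine in batch 1, adenosine in batch 2, AMP. The 2 batch 2 comparisons share their DMSO libraries.

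**Figure D1:**
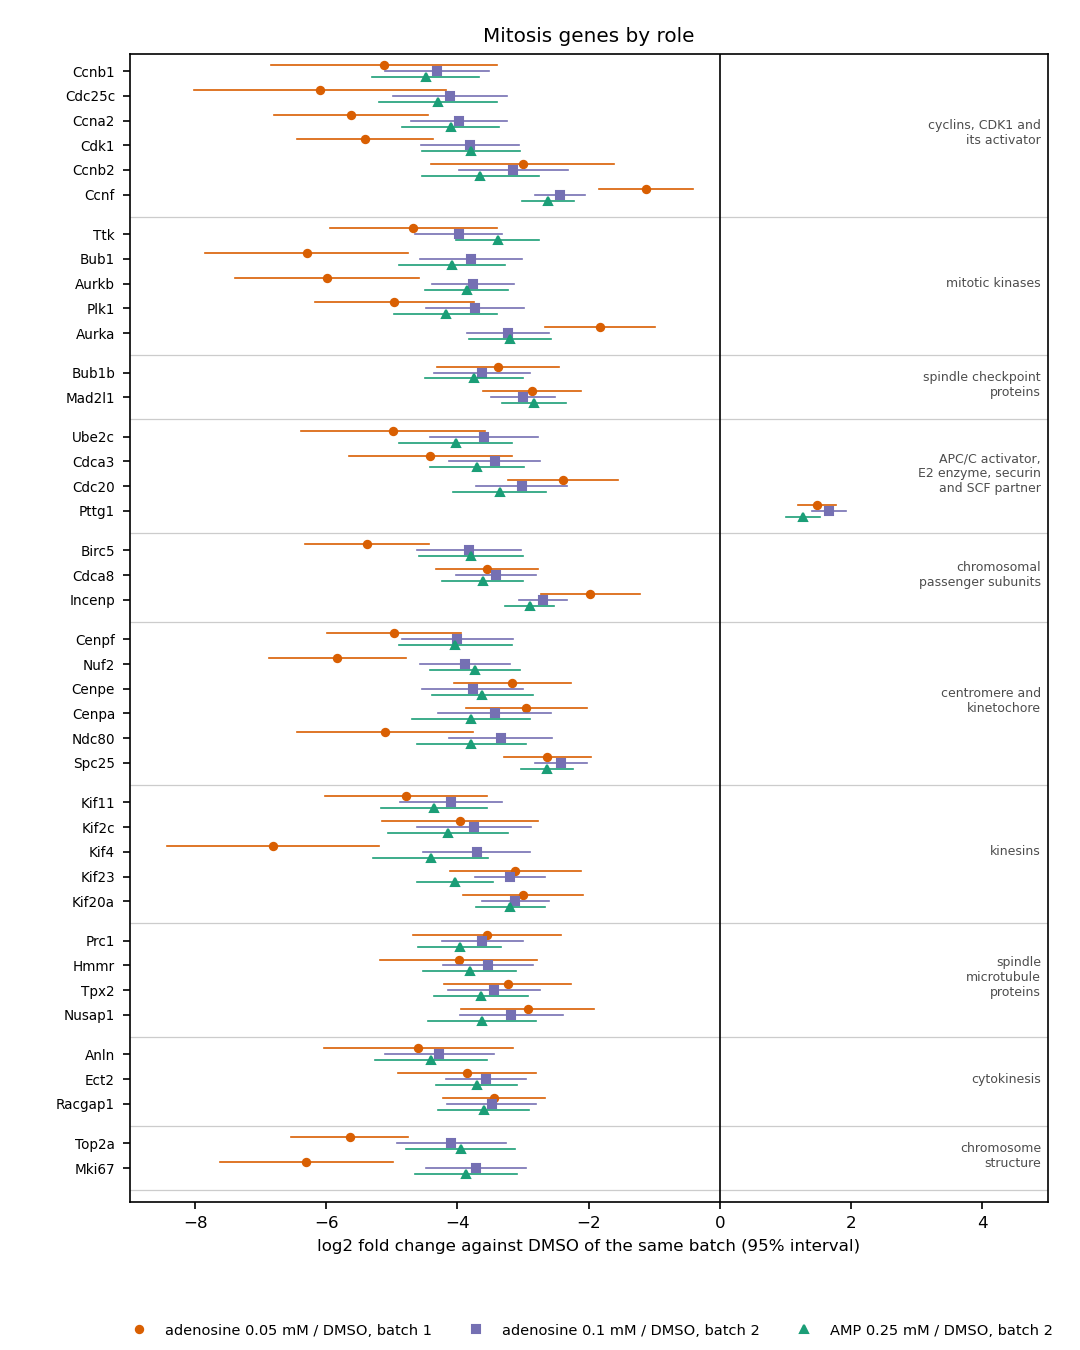
Log2 fold change of each of the 40 mitosis genes against DMSO of the same batch, with its 95% interval, grouped by role. Circles are 0.05 mM adenosine in batch 1, squares 0.1 mM adenosine in batch 2 and triangles 0.25 mM AMP in batch 2. All points but those of Pttg1 lie left of 0.

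The falls were of more than 8-fold for 30 genes with adenosine in batch 1, for 35 with adenosine in batch 2, and for 35 with AMP. With single libraries left out these counts ran from 23 to 34, from 28 to 36 and from 32 to 37. The lowest counts came without DMSO library 1 in batch 1 and without DMSO library 2 in batch 2. Falls of this size were not counted over all genes. Summed over the 39 genes that fell, the level was 111, 113.8 and 84.6 CPM in the batch 1 adenosine libraries, against 2116, 739 and 675 CPM in the DMSO libraries. In batch 2 the sums were 223, 574 and 299 CPM with adenosine and 177, 492 and 290 CPM with AMP, against 2772, 4463 and 3336 CPM with DMSO. These 39 genes were taken because they fell, each with every treated library below every DMSO library of its batch. The separation of the sums follows from that choice. The group means of these sums were 8.76% of DMSO with adenosine in batch 1, 10.4% with adenosine in batch 2 and 9.08% with AMP. The batch 1 share was 14.6% without DMSO library 1. With Pttg1 included, the mean sums were 193 CPM with adenosine and 1205 CPM with DMSO in batch 1. In batch 2 they were 437 CPM with adenosine, 373 CPM with AMP and 3542 CPM with DMSO. Fold changes below come from the fit and can differ from the ratio of CPM values.

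The libraries differed within groups in ways that run through all 39 genes. DMSO library 1 of batch 1 had the highest level of its group for 39 of the 39 genes, and its sum was 2.99 times the mean of the other DMSO libraries. Over all genes tested it was the highest of its group for 36.6%. Without it the median log2 fold change of the 40 genes in batch 1 was -3.10, with 38 genes called lower, and 32 genes had a fold change that was smaller by more than 1.5-fold. Leaving out adenosine library 1, 2 or 3 of batch 1 moved 2, 4 and 2 genes that far. In batch 2, library 2 was the highest for 39 genes with adenosine, for 38 with AMP and for 39 with DMSO, while library 1 was the lowest for 35, 35 and 36 genes. Over all genes tested, library 2 was the highest of these groups for 39.9%, 29.0% and 28.6%. Library 1 was the lowest for 49.8%, 43.9% and 28.8% of all genes. Leaving out adenosine library 2 of batch 2 deepened the fall of 12 genes by more than 1.5-fold, and leaving out AMP library 2 did so for 14.

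**Figure D2:**
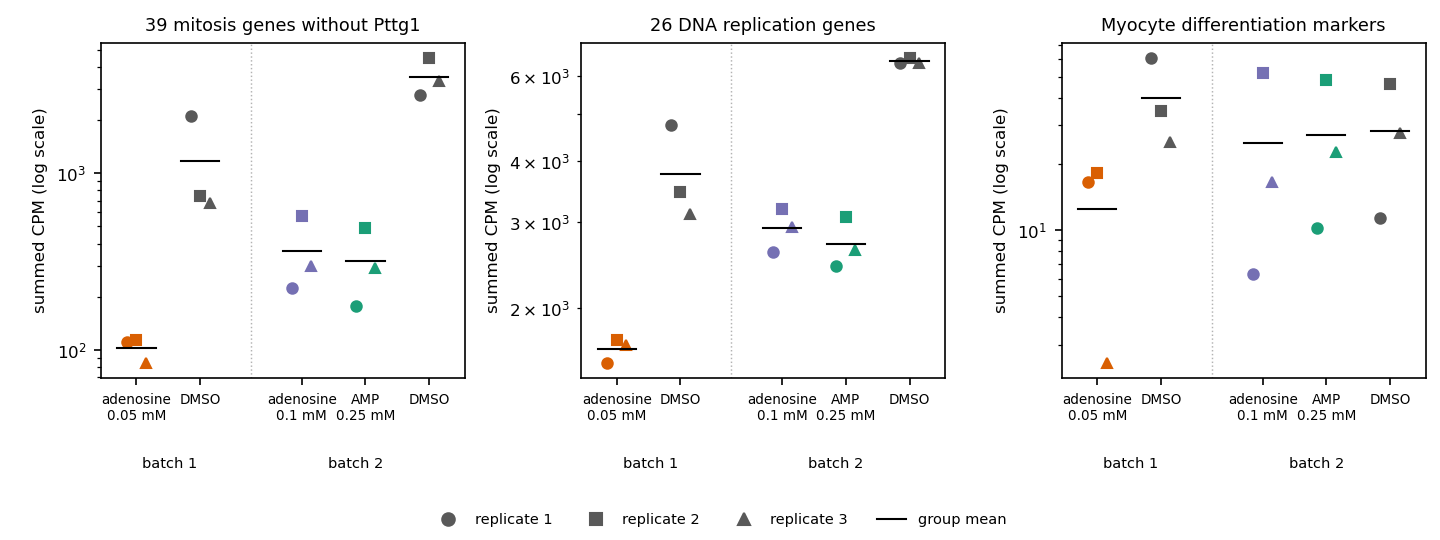
Summed CPM on a log axis in each library, for the 39 mitosis genes without Pttg1, for 26 DNA replication genes and for markers of differentiating myocytes. Points are libraries and bars are group means, and each batch has its own DMSO group. The myocyte panel sums 8 genes in batch 1 and 4 in batch 2. The mitosis sums are 84.6 to 113.8 CPM with adenosine and 675 to 2116 CPM with DMSO in batch 1.

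Depth ran from 14683346 to 20799588 counts a library in batch 1, and from 11107450 to 14201933 in batch 2. Markers of satellite cells (8 genes, none of them at 0 throughout either table) summed to 4285 to 5175 CPM with adenosine and 6706 to 6926 CPM with DMSO in batch 1. In batch 2 these sums were 3136 to 3816 CPM with adenosine, 3495 to 4235 CPM with AMP and 5413 to 5935 CPM with DMSO. Leukocyte markers (8 genes) summed to 13.7 to 19.95 CPM with adenosine and 1.99 to 3.02 CPM with DMSO in batch 1. There Cd3e had no count in any library, and 2 of the 8 passed the filter on low counts. Batch 2 held 2 of the 8 leukocyte markers, Cd68 and Csf1r. These summed to 12.1 to 15.7 CPM with adenosine, 12.3 to 16.3 CPM with AMP and 1.66 to 3.31 CPM with DMSO. Endothelial markers (6 genes) summed to 3.60 to 7.08 CPM with adenosine and 0.673 to 3.52 CPM with DMSO in batch 1. In batch 2, where 1 of these 6 was analysed, the level was 0.782 to 2.20 CPM with adenosine, 0.704 to 2.16 CPM with AMP and 0.348 to 0.704 CPM with DMSO. Markers of fibro-adipogenic progenitors (6 genes) summed to 11.5 to 20.2 CPM with adenosine and 15.4 to 21.8 CPM with DMSO in batch 1. Batch 2 held 2 of these 6, at 5.95 to 9.46 CPM with adenosine, 6.48 to 9.05 CPM with AMP and 5.07 to 8.97 CPM with DMSO. Smooth muscle and pericyte markers (6 genes) summed to 3.43 to 4.91 CPM with adenosine and 4.56 to 5.14 CPM with DMSO in batch 1. Of these 6, 2 were in batch 2, at 1.78 to 4.46 CPM with adenosine, 0.768 to 1.94 CPM with AMP and 2.32 to 2.96 CPM with DMSO. Markers of differentiating myocytes (8 genes) summed to 2.49 to 18.3 CPM with adenosine and 25.1 to 60.5 CPM with DMSO in batch 1. Batch 2 held 4 of these 8, and the groups overlapped there. The sums were 6.28 to 51.9 CPM with adenosine, 10.2 to 48.3 CPM with AMP and 11.3 to 46.2 CPM with DMSO. Library 2 had the highest sum in each batch 2 group. Genes with at least 1 count numbered 23222 to 24194 in the adenosine libraries and 18282 to 18804 in the DMSO libraries of batch 1. The part of any of these in the mitosis results was not tested. Scaling by library totals in place of TMM factors shifted the median of all genes to 0.225, 0.323 and 0.279 on the log2 scale in the 3 comparisons with DMSO, and the share of calls that were higher was then 67.4%, 68.7% and 69.9%, against 50.1%, 50.3% and 51.4% with TMM. Under library totals 39 mitosis genes still fell and Pttg1 still rose in each comparison.

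Promoter sequence was at hand for 34 of the 40 genes, from RefSeq on GRCm38.p6, as windows of 250 bases before to 50 bases after the annotated start. The 5 stretches shown are the 120 bases before the start of genes whose values follow. Capitals mark the NF-Y box CCAAT and the cell cycle homology letters TTTGAA and TTTAAA, read on either strand, so that ATTGG and TTCAAA are the first and second motifs on the other strand. All run 5′ to 3′ on the gene's strand.
Cdk1, chr10:69352913-69353032, minus strand: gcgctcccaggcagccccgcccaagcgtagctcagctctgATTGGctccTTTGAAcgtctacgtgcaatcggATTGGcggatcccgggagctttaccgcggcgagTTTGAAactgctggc
Cdc20, chr4:118437344-118437463, minus strand: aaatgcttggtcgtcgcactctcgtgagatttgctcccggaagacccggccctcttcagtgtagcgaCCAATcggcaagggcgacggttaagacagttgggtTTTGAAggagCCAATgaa
Plk1, chr7:122159315-122159434, plus strand: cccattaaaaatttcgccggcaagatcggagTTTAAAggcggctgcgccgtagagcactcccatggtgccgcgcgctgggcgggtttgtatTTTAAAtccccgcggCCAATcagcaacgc
Kif11, chr19:37376262-37376381, plus strand: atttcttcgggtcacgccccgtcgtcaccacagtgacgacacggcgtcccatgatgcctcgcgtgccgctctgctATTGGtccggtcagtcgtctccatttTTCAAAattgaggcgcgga
Top2a, chr11:99024190-99024309, minus strand: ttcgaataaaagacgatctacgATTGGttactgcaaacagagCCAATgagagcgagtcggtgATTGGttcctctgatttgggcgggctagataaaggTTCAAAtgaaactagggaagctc
In these stretches Cdk1 and Cdc20 each hold 2 CCAAT boxes, Top2a holds 3, and Plk1 and Kif11 each hold 1. Plk1 alone of the 5 shows TTTAAA here, 2 times, and the others show TTTGAA.

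Over the 34 windows, CCAAT was present in 26 genes (76.5%), against 41.1% of 27025 mouse genes with a window. TTTGAA was present in 26 (76.5%), against 20.2% of all genes, and TTTGAA or TTTAAA in 29 (85.3%), against 30.6%. CCAAT and TTTGAA stood together in 23 (67.6%), against 7.97%. In 24 of the 26 genes with TTTGAA, a match lay within 50 bases of the start, and 19 genes held 2 or more CCAAT boxes. Neither count was taken over all genes, so neither is read as a trait of the members. Motif matches are a description of letters in a window. For 27 of the 34 genes the window's start lay within 100 bases of the gene edge in the batch 1 annotation. Those of Cdca3, Cdca8, Cenpa, Kif2c, Kif4, Mad2l1 and Pttg1 lay further from it, so these windows may not hold the promoter used. Over the 27 alone, CCAAT was present in 22 (81.5%), TTTGAA in 21 (77.8%) and both in 19 (70.4%); the shares of all genes were not limited in this way. The window of Pttg1 held none of the motifs.

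Cyclins, CDK1 and its activator fell in every comparison with DMSO, with role medians of -5.27, -3.89 and -3.95 on the log2 scale with adenosine in batch 1, adenosine in batch 2 and AMP. Ccnb1 encodes cyclin B1, whose binding switches CDK1 on. It had 1.02, 1.93 and 0.0592 CPM with adenosine and 66.5, 12.03 and 12.5 CPM with DMSO in batch 1. In batch 2 it had 4.71, 15.01 and 6.44 CPM with adenosine, 2.61, 13.03 and 6.999 CPM with AMP and 109.5, 186 and 125 CPM with DMSO. The treated libraries lay below all DMSO libraries of their batch, and adenosine library 3 of batch 1 was far below the other 2. The log2 fold changes (± SE, n = 3 a group) were -5.12 ± 0.80 with adenosine in batch 1, -4.31 ± 0.37 with adenosine in batch 2 and -4.48 ± 0.38 with AMP (edgeR adjusted p = 0.000321, 6.38e-08 and 8.14e-08), the largest falls of the 40 genes in batch 2. The batch 1 value was -6.07 without adenosine library 2 and -3.82 without DMSO library 1.

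Cdk1, the kinase itself, had 3.13, 1.37 and 1.42 CPM with adenosine and 130.3, 48.5 and 39.5 CPM with DMSO in batch 1. Batch 2 levels were 12.7, 36.4 and 16.6 CPM with adenosine, 9.27, 35.5 and 20.1 CPM with AMP and 203, 289 and 249.8 CPM with DMSO. No treated library reached the lowest DMSO library of its batch. Log2 fold changes were -5.41 ± 0.48 with adenosine in batch 1, -3.81 ± 0.35 with adenosine in batch 2 and -3.79 ± 0.35 with AMP (edgeR adjusted p = 5.02e-06, 1.21e-07 and 1.91e-07). Cdc25c, the phosphatase that removes inhibitory phosphates from CDK1, had few counts, with 0.204, 0 and 0 CPM with adenosine and 7.16, 2.92 and 2.78 CPM with DMSO in batch 1. Its 3 counts over the batch 1 adenosine libraries all came from library 1 and stood against 238 in DMSO, a level of 1.38% of DMSO with a 95% exact interval of 0.282% to 4.07% that covers counting error only. The fit put it at -6.10 ± 0.89 on the log2 scale (edgeR adjusted p = 0.000191). In batch 2 Cdc25c had 0.661, 0.782 and 0.508 CPM with adenosine, 0.3601, 0.968 and 0.341 CPM with AMP and 5.703, 12.98 and 9.16 CPM with DMSO, and fell by 4.11 with adenosine and by 4.30 with AMP on the log2 scale (edgeR adjusted p = 2.74e-07 and 3.57e-07). Ccna2, cyclin A2, and Ccnb2, the second B-type cyclin, also fell in every comparison, Ccna2 by 5.63, 3.98 and 4.11 and Ccnb2 by 3.01, 3.15 and 3.65 on the log2 scale.

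Ccnf stood at the shallow end. It encodes cyclin F, an F-box subunit of an SCF ubiquitin ligase that binds no cyclin-dependent kinase. It had 12.1, 10.1 and 10.2 CPM with adenosine and 34.6, 13.03 and 14.1 CPM with DMSO in batch 1, where DMSO libraries 2 and 3 lay just above the highest adenosine library. In batch 2 it had 11.6, 17.1 and 11.01 CPM with adenosine, 8.82, 12.4 and 12.6 CPM with AMP and 49.9, 70.9 and 51.9 CPM with DMSO, with a wide gap between treated and DMSO libraries. The fit gave log2 fold changes of -1.13 ± 0.33 with adenosine in batch 1, -2.43 ± 0.18 with adenosine in batch 2 and -2.62 ± 0.18 with AMP (edgeR adjusted p = 0.0168, 1.15e-08 and 1.05e-08). Its batch 1 fall was the smallest of the 40 genes in size, and without DMSO library 1 it was -0.54 and no longer called (adjusted p = 0.118). Without adenosine library 2 or adenosine library 3 it was -1.10 each time, close to the value with all libraries, but also not called (adjusted p = 0.0514 and 0.0536). Over the 15 alternatives run, its adjusted p lay between 1.48e-05 and 0.167 and was under 0.05 in 10.

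**Figure D3:**
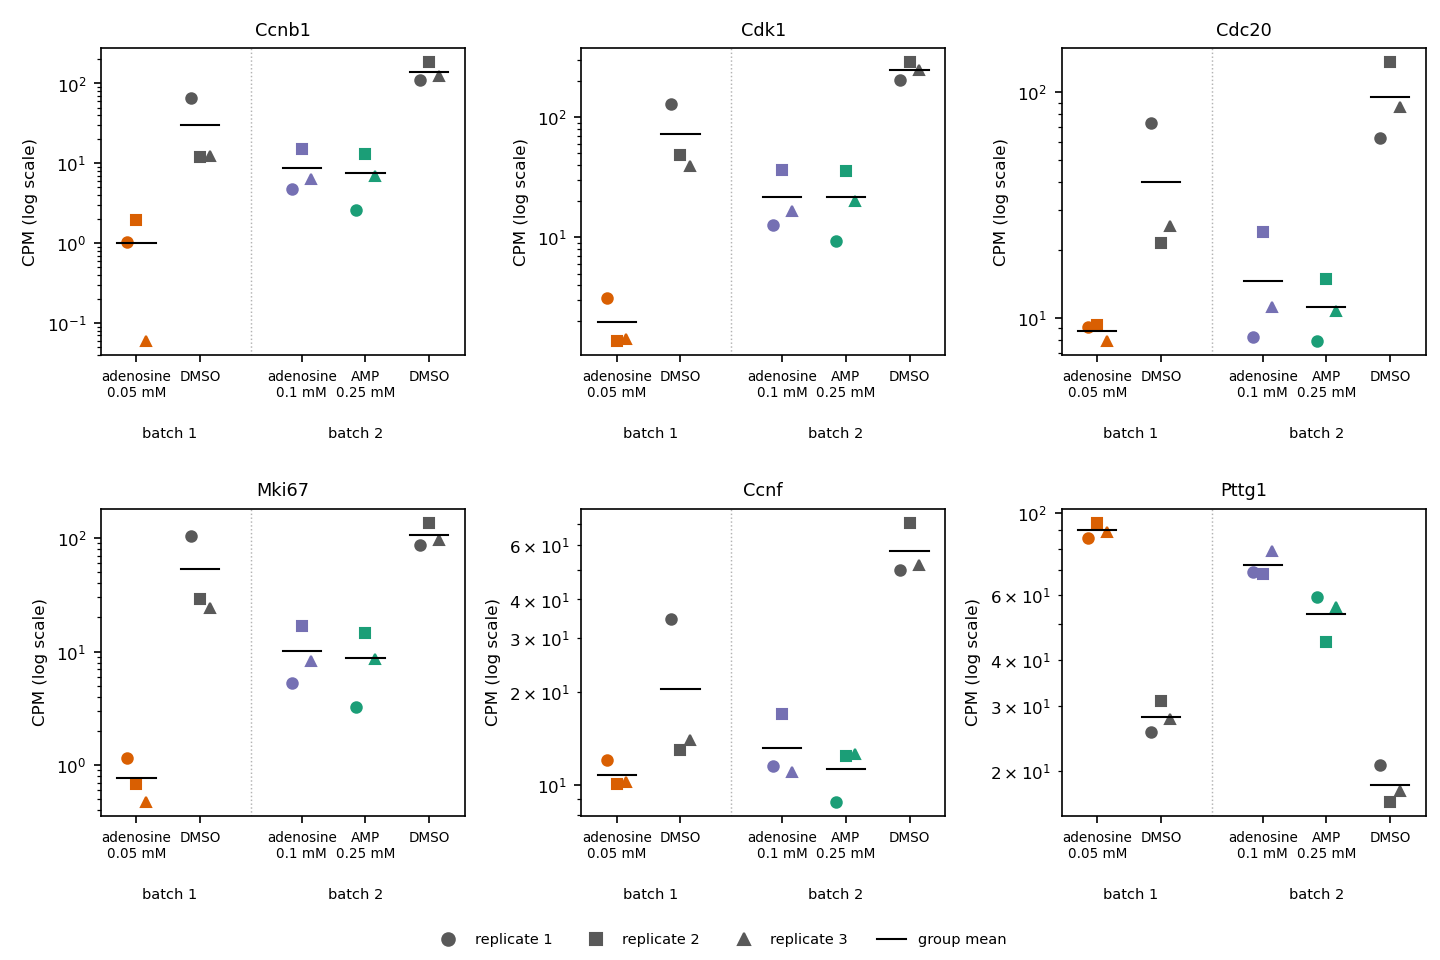
CPM on a log axis in each library for Ccnb1, Cdk1, Cdc20, Mki67, Ccnf and Pttg1, with group means as bars and each batch beside its own DMSO group. Treated libraries lie below DMSO for the first 5 genes and above DMSO for Pttg1, and Ccnf shows the narrowest gap in batch 1.

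The mitotic kinases fell in every comparison, with medians of -4.97, -3.76 and -3.86. Plk1, Polo-like kinase 1, which matures centrosomes and helps activate CDK1, had 1.64, 0.746 and 0.355 CPM with adenosine and 44.7, 14.2 and 14.99 CPM with DMSO in batch 1. Batch 2 levels were 3.63, 10.01 and 5.67 CPM with adenosine, 1.801, 7.75 and 4.27 CPM with AMP and 49.1, 95.02 and 63.97 CPM with DMSO. The groups did not overlap, and the log2 fold changes were -4.97 ± 0.56 with adenosine in batch 1, -3.74 ± 0.35 with adenosine in batch 2 and -4.18 ± 0.37 with AMP (edgeR adjusted p = 2.92e-05, 1.51e-07 and 1.11e-07). Bub1, a kinase that recruits checkpoint proteins to kinetochores, had 0.0681, 0.683 and 0.0592 CPM with adenosine and 35.7, 8.97 and 12.9 CPM with DMSO in batch 1, and its fall of 6.30 on the log2 scale there was among the 3 largest. Adenosine libraries 1 and 3 were near 0 for Bub1, and the fall was 8.29 without adenosine library 2 and 5.50 without DMSO library 1. In batch 2 Bub1 had 2.81, 9.93 and 4.24 CPM with adenosine, 1.71, 8.099 and 3.67 CPM with AMP and 56.6, 78.1 and 55.9 CPM with DMSO, and its falls were 3.79 and 4.09.

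The Aurora kinases gave unlike values in batch 1. Aurkb, the kinase of the chromosomal passenger complex, had 0.613, 1.37 and 0.0592 CPM with adenosine and 70.4, 20.5 and 22.8 CPM with DMSO there, and 5.45, 13.9 and 6.86 CPM with adenosine, 5.04, 12.5 and 6.32 CPM with AMP and 81.8, 118 and 87.7 CPM with DMSO in batch 2. Aurka, the spindle pole kinase, had 9.603, 6.83 and 4.44 CPM with adenosine and 36.4, 12.8 and 15.5 CPM with DMSO in batch 1, and 6.61, 12.4 and 7.96 CPM with adenosine, 7.202, 13.8 and 5.55 CPM with AMP and 49.9, 91.5 and 61.6 CPM with DMSO in batch 2. For Aurka in batch 1 the highest adenosine library approached the lowest DMSO library, whereas for Aurkb the groups were far apart. The log2 fold changes of Aurkb were -5.99 ± 0.65 with adenosine in batch 1, -3.76 ± 0.29 with adenosine in batch 2 and -3.86 ± 0.30 with AMP (edgeR adjusted p = 2.23e-05, 1.97e-08 and 2.66e-08), and those of Aurka were -1.83 ± 0.39 with adenosine in batch 1, -3.22 ± 0.29 with adenosine in batch 2 and -3.20 ± 0.30 with AMP (edgeR adjusted p = 0.0026, 1.12e-07 and 1.87e-07). Without DMSO library 1 the batch 1 values were -5.20 for Aurkb and -1.23 for Aurka, and without adenosine library 2 Aurkb was at -7.07. The difference between the 2 genes was not tested. Ttk, the kinase also called MPS1 that starts the spindle checkpoint, had 0.743, 3.67 and 2.202 CPM with adenosine, 2.79, 4.22 and 2.73 CPM with AMP and 25.8, 34.1 and 25.2 CPM with DMSO in batch 2 and fell by 4.67, 3.98 and 3.39 in the 3 comparisons with DMSO.

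The checkpoint proteins fell in each comparison. Bub1b encodes BUBR1, part of the complex that holds CDC20 inactive until chromosomes are attached. It had 2.66, 3.29 and 2.84 CPM with adenosine and 49.2, 15.4 and 15.7 CPM with DMSO in batch 1, and 4.46, 12.8 and 5.67 CPM with adenosine, 3.601, 11.6 and 5.29 CPM with AMP and 63.4, 99.02 and 67.3 CPM with DMSO in batch 2. Treated and DMSO libraries were well separated in both batches. On the log2 scale the changes were -3.38 ± 0.43 with adenosine in batch 1, -3.63 ± 0.34 with adenosine in batch 2 and -3.75 ± 0.35 with AMP (edgeR adjusted p = 6.78e-05, 1.63e-07 and 2.01e-07). Mad2l1, the MAD2 subunit of the same complex, fell by 2.86, 3.00 and 2.83, which with AMP was among the smallest falls.

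Of 4 genes of the APC/C and SCF ubiquitin ligase pathways (an APC/C activator, its E2 enzyme, its substrate securin and a partner of SCF), 3 fell and 1 rose. Cdc20, the APC/C activator, had 9.13, 9.32 and 7.87 CPM with adenosine and 73.3, 21.5 and 25.5 CPM with DMSO in batch 1. In batch 2 it had 8.26, 24.1 and 11.2 CPM with adenosine, 7.92, 14.8 and 10.8 CPM with AMP and 62.4, 136 and 86.2 CPM with DMSO. The adenosine libraries of batch 1 were within a narrow range below all DMSO libraries, and the log2 fold changes were -2.39 ± 0.39 with adenosine in batch 1, -3.02 ± 0.32 with adenosine in batch 2 and -3.36 ± 0.34 with AMP (edgeR adjusted p = 0.00042, 6.67e-07 and 4.14e-07). The batch 1 value was -1.63 without DMSO library 1. Ube2c, the E2 enzyme that starts ubiquitin chains for the APC/C, fell by 4.99, 3.59 and 4.03. Cdca3, whose product in Xenopus promotes destruction of the CDK1 inhibitor WEE1 through an SCF ligase, fell by 4.41, 3.43 and 3.71.

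Pttg1 was the exception. It encodes securin, the inhibitor of separase that the APC/C destroys at the onset of anaphase, and lies at chr11:43420250-43426251 on the minus strand of GRCm38 in the batch 1 annotation. It had 85.95, 94.3 and 89.2 CPM with adenosine and 25.5, 31.04 and 27.7 CPM with DMSO in batch 1. Batch 2 levels were 69.1, 68.5 and 79.03 CPM with adenosine, 59.1, 44.6 and 55.8 CPM with AMP and 20.7, 16.5 and 17.6 CPM with DMSO. Every treated library lay above every DMSO library of its batch. Log2 fold changes were 1.48 ± 0.13 with adenosine in batch 1, 1.67 ± 0.12 with adenosine in batch 2 and 1.27 ± 0.12 with AMP (edgeR adjusted p = 5.15e-06, 1.03e-08 and 2.93e-07). Pttg1 was called higher in all 15 alternatives of batch 1 and all 20 of each comparison with DMSO in batch 2. These alternatives overlap, and some in batch 2 are the same fit. DMSO library 1 of batch 1 and the number 2 libraries of batch 2, which were highest for nearly all the other genes, were the lowest of their groups for Pttg1. With adenosine in batch 2 the gap was narrow, 68.5 against 69.1 CPM in library 1. By deposited FPKM, which are per length, it was the highest of the 40 in all 9 treated libraries and in DMSO libraries 2 and 3 of batch 1, and ranked 29 to 36 in the DMSO libraries of batch 2. Its FPKM level was 41.4 ± 1.61 with adenosine and 14.9 ± 1.39 with DMSO in batch 1 (SD, n = 3 each). In batch 2 its FPKM were 33.2 ± 2.49 with adenosine, 24.96 ± 3.81 with AMP and 10.3 ± 1.01 with DMSO (SD, n = 3 each).

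The chromosomal passenger complex carries Aurora B to centromeres and later to the midzone. Incenp, its scaffold, had 9.13, 13.4 and 8.05 CPM with adenosine and 58.7, 25.6 and 20.6 CPM with DMSO in batch 1. In batch 2 it had 11.8, 23.2 and 18.6 CPM with adenosine, 13.2, 16.99 and 14.8 CPM with AMP and 79.4, 106 and 93.8 CPM with DMSO. All treated libraries were below the DMSO libraries, but the adenosine libraries kept a larger share of the DMSO level than those of most other genes did. The fit gave log2 fold changes of -1.97 ± 0.35 with adenosine in batch 1, -2.69 ± 0.17 with adenosine in batch 2 and -2.90 ± 0.18 with AMP (edgeR adjusted p = 0.000766, 2.91e-09 and 2.76e-09), and the batch 1 value was -1.39 without DMSO library 1. The other 2 subunits on the list fell further in each comparison, Birc5 (survivin) by 5.39, 3.83 and 3.79 and Cdca8 (borealin) by 3.55, 3.42 and 3.62.

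All 6 centromere and kinetochore genes fell. Ndc80 encodes the microtubule-binding subunit of the NDC80 complex. It had 0.136, 0.186 and 0.829 CPM with adenosine and 20.3, 6.18 and 9.62 CPM with DMSO in batch 1, and 1.98, 9.46 and 2.79 CPM with adenosine, 2.52, 5.11 and 2.56 CPM with AMP and 33.5, 47.5 and 36.5 CPM with DMSO in batch 2. The groups did not overlap, and the log2 fold changes were -5.11 ± 0.62 with adenosine in batch 1, -3.34 ± 0.37 with adenosine in batch 2 and -3.79 ± 0.39 with AMP (edgeR adjusted p = 5.02e-05, 9.19e-07 and 5.65e-07). Its partners in that complex were Nuf2, which fell by 5.83, 3.89 and 3.74, and Spc25, which fell by 2.63, 2.42 and 2.63. Spc25 had 3.88, 5.53 and 4.38 CPM with adenosine and 36.8, 22.5 and 15.6 CPM with DMSO in batch 1, and 10.9, 15.5 and 14.9 CPM with adenosine, 7.56, 14.7 and 12.3 CPM with AMP and 51.96, 69.4 and 56.8 CPM with DMSO in batch 2. It had among the smallest falls in batch 2, although no library overlapped (edgeR adjusted p = 3.72e-05, 1.58e-08 and 1.26e-08).

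Cenpf, a large protein of the outer kinetochore, had 1.02, 0.497 and 1.24 CPM with adenosine and 41.7, 22.2 and 12.4 CPM with DMSO in batch 1, and 1.65, 5.24 and 1.44 CPM with adenosine, 1.53, 4.75 and 1.71 CPM with AMP and 25.8, 47.5 and 35.9 CPM with DMSO in batch 2. The treated libraries were again below all DMSO libraries. On the log2 scale the changes were -4.97 ± 0.47 with adenosine in batch 1, -4.0 ± 0.40 with adenosine in batch 2 and -4.03 ± 0.40 with AMP (edgeR adjusted p = 7.71e-06, 2.79e-07 and 4.25e-07). Cenpa, the histone H3 variant that marks centromeres, fell by 2.95, 3.43 and 3.79, and Cenpe, a kinesin that moves chromosomes to the spindle equator, by 3.16, 3.77 and 3.62.

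Among the kinesins, Kif11 encodes EG5, the motor that pushes spindle poles apart. It had 1.29, 1.37 and 0.592 CPM with adenosine and 51.9, 13.5 and 12.9 CPM with DMSO in batch 1, and 2.97, 9.697 and 5.08 CPM with adenosine, 1.53, 8.803 and 4.097 CPM with AMP and 65.98, 102 and 79.1 CPM with DMSO in batch 2. The groups were far apart, and the log2 fold changes were -4.79 ± 0.57 with adenosine in batch 1, -4.10 ± 0.37 with adenosine in batch 2 and -4.36 ± 0.38 with AMP (edgeR adjusted p = 4.65e-05, 9.08e-08 and 9.71e-08). Kif4, a motor bound to chromosome arms, had 0.136, 0.124 and 0.177 CPM with adenosine and 30.6, 10.04 and 5.12 CPM with DMSO in batch 1, and 1.98, 8.29 and 3.56 CPM with adenosine, 1.08, 5.37 and 1.79 CPM with AMP and 43.02, 59.7 and 43.7 CPM with DMSO in batch 2. Its batch 1 adenosine libraries were all near 0, and its log2 fold change there was the largest fall of the 40 genes, -6.82 ± 0.75, or -5.81 without DMSO library 1 (edgeR adjusted p = 2.4e-05 with it). In batch 2 Kif4 fell by 3.70 with adenosine and by 4.41 with AMP, and by 5.35 with AMP when AMP library 2 was left out.

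Kif23, the motor subunit of centralspindlin at the spindle midzone, had 1.98, 3.29 and 2.19 CPM with adenosine and 34.5, 13.5 and 8.63 CPM with DMSO in batch 1, and 5.95, 12.7 and 7.96 CPM with adenosine, 2.61, 6.25 and 5.55 CPM with AMP and 52.1, 82.5 and 62.6 CPM with DMSO in batch 2. It fell by 3.12 and 3.20 with adenosine in batches 1 and 2 and by 4.04 with AMP. Kif2c, a kinesin that takes microtubules apart at centromeres, fell by 3.96, 3.75 and 4.14. Kif20a, which relocates the passenger complex to the midzone, fell by 3.00, 3.12 and 3.19. Exons of Kif20a share 33.2% of their bases with Cdc23, an APC/C subunit, those of Ube2c 22.8% with Tnnc2, those of Kif4 15.1% with Pdzd11 and those of Ccna2 12.5% with Exosc9 in the batch 1 annotation, and the library kit keeps no strand. Of the 40 genes, 31 share no exon base with another gene. The pseudogenes Ccnb1-ps, Ccnb2-ps and Kif4-ps are named copies, and reads that fit both cannot be told apart here.

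The proteins that organise spindle microtubules fell together. Tpx2, which activates Aurora A and starts microtubules near chromosomes, had 5.79, 3.23 and 3.91 CPM with adenosine and 66.2, 20.1 and 19.9 CPM with DMSO in batch 1, and 5.53, 20.2 and 10.9 CPM with adenosine, 6.66, 15.2 and 9.13 CPM with AMP and 79.9, 142 and 100.1 CPM with DMSO in batch 2. There was no overlap, and the log2 fold changes were -3.24 ± 0.45 with adenosine in batch 1, -3.45 ± 0.33 with adenosine in batch 2 and -3.64 ± 0.34 with AMP (edgeR adjusted p = 0.000128, 1.79e-07 and 1.82e-07). Prc1, which bundles midzone microtubules, fell by 3.55, 3.62 and 3.96, and Nusap1, another microtubule bundler, by 2.93, 3.18 and 3.62. Hmmr, which helps TPX2 at spindle poles, fell by 3.98, 3.54 and 3.82.

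All 3 cytokinesis genes fell. Anln, the scaffold anillin of the contractile ring, had 2.52, 2.796 and 0 CPM with adenosine and 61.4, 28.1 and 21.7 CPM with DMSO in batch 1, and 5.04, 18.5 and 6.78 CPM with adenosine, 4.32, 16.7 and 6.06 CPM with AMP and 126, 201 and 149.5 CPM with DMSO in batch 2. Adenosine library 3 of batch 1 had no Anln count, and its treated libraries lay far below DMSO in both batches. Log2 fold changes were -4.59 ± 0.67 with adenosine in batch 1, -4.28 ± 0.39 with adenosine in batch 2 and -4.40 ± 0.40 with AMP (edgeR adjusted p = 0.000187, 1.2e-07 and 1.55e-07), and the batch 1 value was -4.0 without adenosine library 3. Without the number 2 library of the treated group, Anln was at -5.04 with adenosine and -5.21 with AMP in batch 2. Ect2, the exchange factor that activates RhoA at the equator, fell by 3.86, 3.56 and 3.71, and Racgap1, its centralspindlin partner, by 3.45, 3.48 and 3.60.

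Both genes of chromosome structure fell. Top2a, the topoisomerase that untangles sister chromatids, had 3.201, 2.55 and 2.07 CPM with adenosine and 194, 86.2 and 61.1 CPM with DMSO in batch 1, and 16.4, 40.9 and 17.3 CPM with adenosine, 10.3, 48.5 and 20.9 CPM with AMP and 276, 407 and 343 CPM with DMSO in batch 2. Its log2 fold changes were -5.65 ± 0.41 with adenosine in batch 1, -4.09 ± 0.39 with adenosine in batch 2 and -3.95 ± 0.39 with AMP (edgeR adjusted p = 1.19e-06, 1.88e-07 and 3.65e-07). Mki67, the coat of mitotic chromosomes detected as the proliferation antigen Ki-67, had 1.16, 0.683 and 0.473 CPM with adenosine and 105, 29.4 and 24.3 CPM with DMSO in batch 1, and 5.29, 16.7 and 8.22 CPM with adenosine, 3.24, 14.5 and 8.62 CPM with AMP and 87.03, 136 and 97.04 CPM with DMSO in batch 2. Both genes were below DMSO in every treated library by a wide margin. The log2 fold changes of Mki67 were -6.30 ± 0.61 with adenosine in batch 1, -3.71 ± 0.36 with adenosine in batch 2 and -3.87 ± 0.37 with AMP (edgeR adjusted p = 9.14e-06, 2.06e-07 and 2.39e-07), and the batch 1 value was -5.33 without DMSO library 1.

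In DMSO the order of the genes by mean deposited FPKM was led in batch 1 by Cdc20 at 22.8 ± 16.3 and Cdk1 at 22.4 ± 15.3, followed by Mad2l1 at 19.9 ± 10.8 and Ccna2 at 18.1 ± 13.5 FPKM (SD, n = 3). In batch 2 DMSO it was led by Cdk1 at 81.4 ± 15.7 and Ccna2 at 68.5 ± 15.7 FPKM, followed by Cdc20 at 57.8 ± 24.0 and Mad2l1 at 53.7 ± 8.0 FPKM (SD, n = 3). Neighbours in these orders did not differ beyond their spread. Cenpf was the lowest in both batches, at 1.74 ± 1.01 FPKM in batch 1 and 2.68 ± 0.85 FPKM in batch 2. The batch 1 means rest on DMSO library 1, where Cdc20 led at 41.5 FPKM and Pttg1 ranked 15, whereas Pttg1 led in DMSO libraries 2 and 3 at 16.2 and 15.02 FPKM. The FPKM tables of the batches were made separately, so levels are not compared across them.

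The direct comparison of AMP with adenosine in batch 2 sets 0.25 mM against 0.1 mM, so the doses differ. Of the 40 genes 1 was called lower with AMP and 0 higher, while 2.0% of all genes tested were called lower and 4.52% higher. The median log2 difference over the 40 was -0.19, with 32 genes below 0 and 8 above, against a median of -0.003 over all genes. The called gene was Pttg1, at -0.40 ± 0.11 (edgeR adjusted p = 0.0496), with each AMP library below each adenosine library. Its adjusted p lay between 0.0103 and 0.212 over 20 alternatives and was under 0.05 in 8. Kif23 followed at -0.84 ± 0.30 (adjusted p = 0.113), with overlapping libraries, and then Ttk at 0.59 ± 0.37 (adjusted p = 0.408). With the replicate number as a block, Kif23 was at -0.83 and called lower (edgeR adjusted p = 0.00289). In that fit 3 of the 40 genes were lower, against 2.91% of all genes. The labels do not say that equal numbers are pairs. For 18 of the 40 genes the 95% interval of the difference lay within 2-fold in either direction, and over all 40 the intervals reached from -1.74 to 1.38 on the log2 scale. A missed threshold does not show that the compounds act alike. The sign of the median turned to 0.34 without adenosine library 2 and to 0.06 without AMP library 1.

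The adenosine effect was then compared between the batches, in which dose, batch and possibly strain change together and cannot be told apart. The test is an interaction over all 15 libraries and 13060 genes, and positive values mean a shallower fall in batch 2. Of the 40 genes 1 was called lower and 0 higher, against 5.64% of all genes called lower and 6.27% higher. The called gene was Ccnf, which fell by 2.43 with 0.1 mM adenosine in batch 2 and by 1.13 with 0.05 mM in batch 1, a difference of -1.30 ± 0.40 (edgeR adjusted p = 0.0386). Mki67 and Aurkb came next, with shallower falls in batch 2, at 2.59 ± 0.87 and 2.23 ± 0.81 (adjusted p = 0.0605 and 0.0777). With the replicate number as a block, 2 of the 40 genes were called lower and 9 higher, against 6.29% and 6.94% of all genes. The median over the 40 was 0.31, and it was -0.34 without DMSO library 1 of batch 1.

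**Figure D4:**
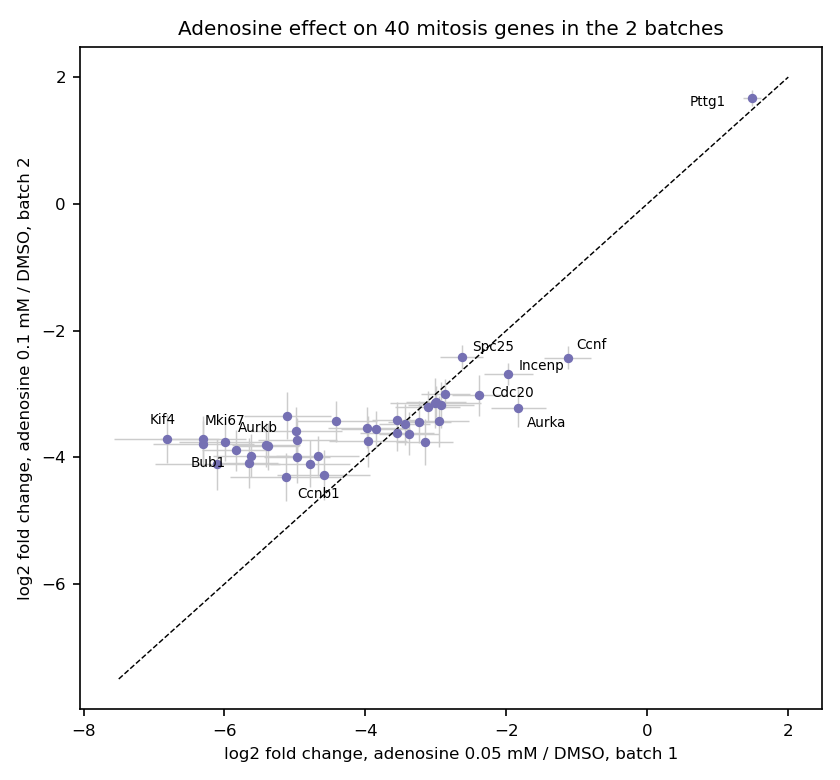
Log2 fold change of the 40 mitosis genes with 0.05 mM adenosine against DMSO in batch 1 (x axis) and with 0.1 mM adenosine against DMSO in batch 2 (y axis), with bars of 1 standard error each way and a dashed line of equal change. The 39 genes that fell spread from -6.82 to -1.13 in batch 1 and from -4.31 to -2.42 in batch 2.

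The falls of the 39 genes spread more in batch 1 than in batch 2, with an SD across genes of 1.41 with adenosine in batch 1 against 0.45 with adenosine in batch 2 and 0.46 with AMP. Across the 39 genes the log2 fold changes of the 2 batches, which share no library, had a Pearson correlation of 0.77 and a Spearman correlation of 0.77. This is across genes of the same cell programme, which are not independent, so no p is given. Of the 6 shallowest falls in each batch 5 were of the same genes, Ccnf, Cdc20, Incenp, Mad2l1 and Spc25.

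Other genes of the same processes were read from lists that do not overlap the 40, and their counts carry no test of the list. The shares of all genes called lower were 19.5% with adenosine in batch 1, 34.5% with adenosine in batch 2 and 31.8% with AMP. Of 24 further kinetochore and centromere genes, 22 fell with adenosine in batch 1, 22 with adenosine in batch 2 and 23 with AMP. None was called higher, and the medians were -2.93, -2.77 and -2.87. The largest fall with adenosine in batch 2 was that of Cenpi (-3.99, edgeR adjusted p = 7.32e-09), a subunit of the inner kinetochore, and the smallest change that of Cenpt (-0.09, adjusted p = 0.601). Of 19 further kinesin and spindle genes, 11 fell in batch 1 and all 19 with either compound in batch 2, from Dlgap5 (-4.10, adjusted p = 4.38e-09), which stabilises kinetochore fibres, to Haus8 (-0.79, adjusted p = 0.000101), an augmin subunit. Of 10 cytokinesis genes, 6 fell in batch 1 and all 10 with either compound in batch 2, from Cep55 (-4.42, adjusted p = 7.07e-08), which recruits the abscission machinery, to the septin Sept7 (-0.18, adjusted p = 0.0173). Of 11 genes around the CDK1 switch, 9 fell in batch 1 and all 11 with either compound in batch 2, with Pbk (-3.56, adjusted p = 8.25e-07) and Gtse1 (-0.91, adjusted p = 6.89e-07) at the ends.

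Other complexes of mitosis were read in the same way. Of 14 APC/C core subunits, 5 fell and 1 rose with adenosine in batch 1, 8 fell and 3 rose with adenosine in batch 2, and 8 fell and 2 rose with AMP. Of all genes tested, 19.5% were lower and 19.6% higher in batch 1, 34.5% and 34.9% with adenosine in batch 2, and 31.8% and 33.7% with AMP, so on 14 genes these counts are not read as a result about the complex. Their medians were -0.26, -0.42 and -0.39, and the largest change with adenosine in batch 2 was that of Anapc15 (-0.90, edgeR adjusted p = 0.000275), the smallest that of Cdc26 (-0.03, adjusted p = 0.831). Of 14 cohesin genes, 5 fell and 2 rose in batch 1, and 8 fell and 3 rose with either compound in batch 2. Beside the same shares of all genes, the cohesin counts are likewise not read as a result about that list. The largest fall in that list was that of Espl1 (-3.86, adjusted p = 3.43e-08), which encodes separase, the protease that securin inhibits, and the smallest change that of Pds5a (-0.10, adjusted p = 0.274). Condensin, which compacts mitotic chromosomes, fell in 7 of 8 genes in batch 1 and in all 8 with either compound in batch 2, from Ncapg (-3.44, adjusted p = 1.42e-07) to Ncaph2 (-0.33, adjusted p = 0.000949). Of 9 constitutive kinetochore and checkpoint partners, 4 fell in batch 1 and 8 with either compound in batch 2, with Nsl1 (-2.66, adjusted p = 6.77e-07) and Cenpb (-0.16, adjusted p = 0.197) at the ends.

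Of 5 tested regulators of the APC/C, 1 fell in batch 1 and all 5 with either compound in batch 2, from Fbxo5 (-3.11, edgeR adjusted p = 3.74e-08), the inhibitor EMI1, to Ube2d1 (-0.41, adjusted p = 0.000399). Of 8 genes listed for the phosphatases of mitotic exit, 3 fell in batch 1 and 5 with either compound in batch 2. Cdc14b (-1.04, adjusted p = 0.000522) and Ppp2r2a (-0.16, adjusted p = 0.042) stood at the ends. That list also holds Ensa and Arpp19, which encode inhibitors of a phosphatase. Of 15 genes that control transcription of the mitosis genes, 6 fell and 1 rose in batch 1, 9 fell and 4 rose with adenosine in batch 2, and 10 fell and 2 rose with AMP. The shares of all genes were 19.5%, 34.5% and 31.8% called lower and 19.6%, 34.9% and 33.7% called higher. Beside these, nothing is read from the counts of the phosphatase list, the transcription list or, in batch 1, the APC/C regulators. The largest fall in the transcription list was that of Foxm1 (-3.55, adjusted p = 1.71e-08), the forkhead factor of late cell cycle promoters, while Nfya, an NF-Y subunit, was at 0.04 (adjusted p = 0.813).

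**Figure D5:**
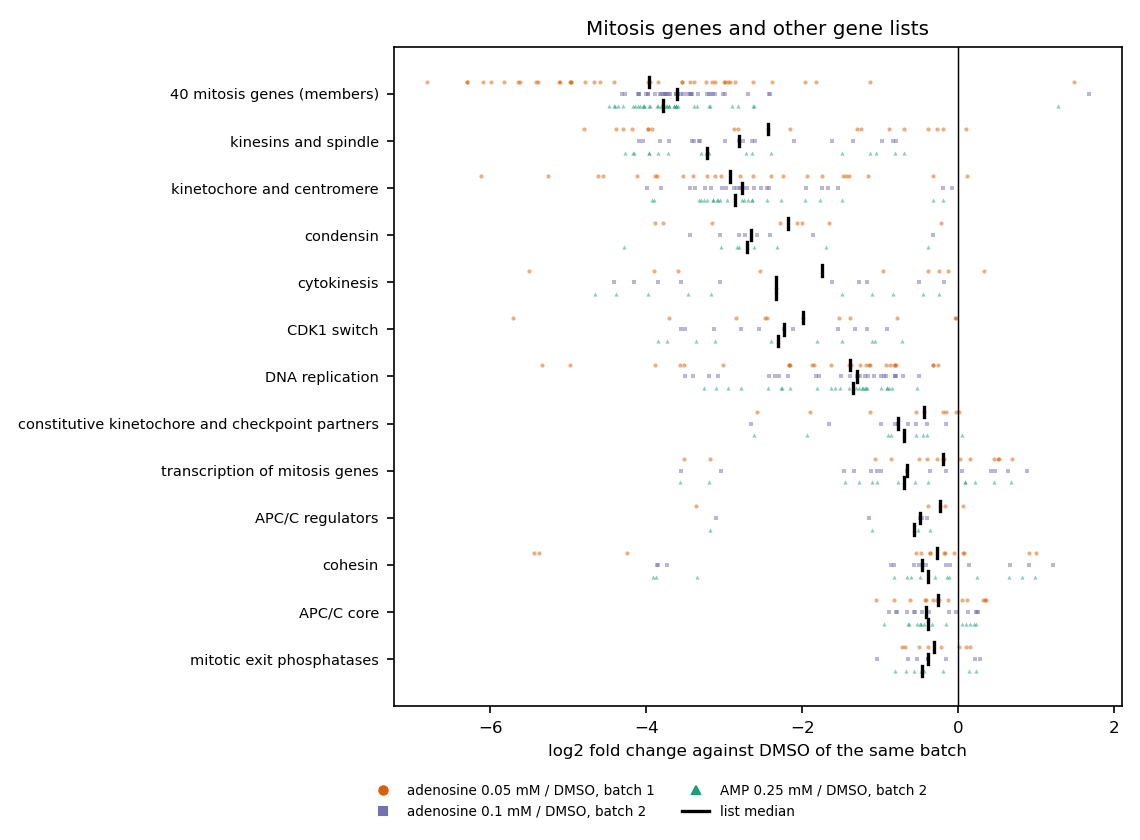
Log2 fold change against DMSO of the same batch for the 40 mitosis genes and for 12 other gene lists, with 1 point a gene and comparison and a bar at each median. Depdc1a of the cytokinesis list had no count in the 3 adenosine libraries of batch 1, so its point is left out there. The mitosis genes have the lowest medians, -3.97, -3.61 and -3.79.

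DNA replication genes, which act in the phase of DNA synthesis before mitosis, also fell. Of 26, 23 fell with adenosine in batch 1 and all 26 with either compound in batch 2, with medians of -1.39, -1.30 and -1.36. Over all genes tested, 19.5%, 34.5% and 31.8% were called lower in the same order. Their summed level was 1540.0 to 1716 CPM with adenosine and 3117 to 4746 CPM with DMSO in batch 1. In batch 2 it was 2602 to 3195 CPM with adenosine, 2432 to 3067 CPM with AMP and 6372 to 6513 CPM with DMSO. The largest fall with adenosine in batch 2 was that of Rrm2 (-3.50, edgeR adjusted p = 1.17e-08), a subunit of ribonucleotide reductase, and the smallest that of Pcna (-0.51, adjusted p = 6.32e-05), the sliding clamp. The difference between the 2 lists was not tested.

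In the authors' deposited table for batch 1, all 40 genes had an adjusted p under 0.05, with 39 higher in DMSO and 1 lower. The value for Pttg1 in the authors' deposited table was -1.47 on the log2 scale, coded as DMSO over adenosine.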

How the data were processed

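Per the labels' protocols, total RNA was made into Smart-seq2 cDNA, which keeps no strand, and fragmented with Tn5. Gene counts of each batch are the authors' raw tables, as deposited. According to the submitters' processing notes, Trim Galore, STAR, featureCounts from Subread and DESeq2 were used with the mm10 build, and per the file headers the batch 1 counter was featureCounts 1.6.4; no source used here states the batch 2 settings. The authors also deposited FPKM for both batches and, for batch 1, log2 fold changes and adjusted p-values. In the batch 2 counts 43 lines named no gene (0.0589% of counts) and were left out.

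Counts were fitted with edgeR 4.0.16 in R 4.3.3 (TMM, filterByExpr, two-sided quasi-likelihood test, p-values adjusted by Benjamini-Hochberg over all genes tested, threshold 0.05). Batch 1 was fitted on its own, batch 2 on its 9 libraries together, and the batch contrast on all 15. The SE is the log2 fold change divided by the root of F. CPM are counts over library totals, given as single values or mean ± SD. Alternatives were DESeq2 1.42.0, limma 3.58.1 on log2(FPKM + pseudocount) with pseudocounts of 1 and 0.1, other filters, library totals, a replicate block and left-out libraries. Scripts were tested on simulated data. No pair of replicates looked like a copy (chi-square 3.54 to 34.4 per degree of freedom over 15 pairs).

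The members, the other lists and the tests were chosen with earlier results of these data known. Library values are given for named members of each role, for the 3 largest and 3 smallest fold changes in each comparison with DMSO, for members called against the majority, and for the 3 smallest p in the other contrasts; of other lists the ends by size with adenosine in batch 2 are named.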

Additional observations from a re-analysis of the deposited data

Results flagged for a closer look

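Ccnf is the gene among the 40 whose adenosine effect differed between the batches by a test of the difference itself. The interaction of treatment with batch was -1.30 on the log2 scale (± 0.40 SE, edgeR adjusted p = 0.0386), because Ccnf fell by 2.43 with 0.1 mM adenosine in batch 2 and by 1.13 with 0.05 mM in batch 1. Its level was 11.6, 17.1 and 11.01 CPM with adenosine and 49.9, 70.9 and 51.9 CPM with DMSO in batch 2, and 12.1, 10.1 and 10.2 CPM with adenosine and 34.6, 13.03 and 14.1 CPM with DMSO in batch 1, so it was lower in 3 of 3 adenosine libraries of each batch. Over the 21 alternatives its adjusted p lay between 0.000667 and 0.114 and was under 0.05 in 9. Dose and batch cannot be told apart here, and DMSO library 1 of batch 1 stood apart for this gene as for the others.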

How the results depend on the processing

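In the 3 comparisons with DMSO, Pttg1 was called higher and the other tested members were below 0 under every alternative run. The alternatives are not independent checks. In batch 2 the settings with and without a filter on low counts tested the same 13063 genes and gave the same values. Leaving out a library of a group outside the comparison moved the members' log2 fold changes by 0.0092 at most. Fewer members were called lower in batch 1 with a minimum mean of 10 CPM, 25, because only 26 members pass that filter. With limma on log2(FPKM + 1) the median was -2.07 in batch 1 and -2.85 with adenosine in batch 2, with or without a filter; that scale understates the change of low genes. Leaving out single libraries gave 38 to 39 members lower in batch 1 (median -4.27 to -3.10), and 39 in batch 2 with adenosine (median -4.16 to -3.34) and with AMP (median -4.30 to -3.45). Batch 1 calls lost in other settings were those of Ccnf with limma (adjusted p = 0.0514 and 0.167), and of Ccnb2, Aurka and Hmmr with limma and no filter (0.0698, 0.0593 and 0.0539).

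For AMP against adenosine, members called lower were 0 under the 3 limma settings, with only the groups compared fitted, and without library 2 of all 3 groups (an alternative chosen after seeing the data). Genes called in all were 546 with limma on log2(FPKM + 0.1) and 401 without those 3 libraries. Leaving out single libraries gave 0 to 1 members, 408 to 991 genes in all and a median of -0.67 to 0.34, which turned sign without adenosine library 2 (0.34) and without AMP library 1 (0.055). For the batch contrast, 0 members were lower by library totals (1 higher), under the 10 CPM minimum, and with DESeq2 (0 higher). Leaving out single libraries gave 0 to 3 lower, 0 to 3 higher, 898 to 2063 genes in all and a median of -0.34 to 0.65, with -0.34 coming without DMSO library 1 of batch 1. The summed level of all 40 in batch 1, Pttg1 included, averaged 193 CPM with adenosine and 1205 CPM with DMSO. As a percent of DMSO it was 14.0% with TMM-scaled totals and 9.45% without the highest member of each library. That member was Pttg1 in the adenosine libraries and Top2a in the DMSO libraries, so unlike genes were left out. These percents are not those of the 39 genes without Pttg1. Beyond this, the cause of the shifts in this paragraph was not tested.

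The labels number replicates alike in each group. Deviations from group means over all genes correlated by -0.03 to 0.09 between same-numbered libraries in batch 1 and by -0.07 to 0.30 in batch 2. The main fits therefore did not treat the numbers as pairs. A library correlated best with its own number, out of 3 to match, in 13 of 24 cases. Among the 39 genes that fell, however, library 2 was the highest and library 1 the lowest of each batch 2 group for 35 or more. Over all genes tested, library 2 was the highest for 28.6% to 39.9% and library 1 the lowest for 28.8% to 49.8%. With the replicate number as a block, 39 members fell and 1 rose in each comparison with DMSO, AMP against adenosine had 3 members lower, among them Kif23 (adjusted p = 0.00289, against a range of 0.00289 to 0.391 over its alternatives), against 2.91% of all genes lower, and the batch contrast had 2 lower and 9 higher, against 6.29% and 6.94% of all genes.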
